A study of Mus musculus with 6 samples.

Results

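Proteins that are secreted or sit in membranes are folded in the endoplasmic reticulum (ER), and 40 genes of this folding system and of its stress response were followed in cortical cultures with reduced Neurod2. The list holds ER stress sensors, the chaperones that the factors ATF6 and XBP1 switch on, and genes of ER-associated degradation, and its rule uses gene names and positions. A member was found where the span of a deposited locus (mouse genome build mm10) and the annotated span of the gene shared at least 0.5 of their union. Of the 40 genes, 37 had such a locus, with 45 loci between them out of 32357 loci in the whole table.

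The study used primary cultures from the cerebral cortex of Balb/c mouse embryos at embryonic stage E14.5. After papain digestion the cell suspension was nucleofected with shRNA plasmids in the pSuperneoGFP backbone and plated in medium with serum. The Neurod2 knockdown group held 4 libraries, 2 with shNeurod2-1 and 2 with shNeurod2-2, and the non-silencing group held 2 libraries with a control shRNA. RNA was taken at 4 days in vitro by the sample labels, and the methods text places it 1 day later. Only cells that took up a plasmid carried an shRNA, and the RNA came from the whole culture. The table gives 1 FPKM value per locus and group (fragments counted per length of transcript and per mapped reads of the library, so levels can be set side by side between genes), pooled over both shRNAs. With 1 pooled value per group there was no replicate spread and no standard error to give, the authors' own test values were not used, and every ratio below is a description of those 2 values. The depth behind each value is unknown.

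When unfolded protein builds up in the ER, 3 sensors in its membrane respond. IRE1 (gene Ern1) splices the mRNA of the transcription factor XBP1, ATF6 is carried to the Golgi and cut there into an active factor, and PERK (gene Eif2ak3) phosphorylates the translation factor eIF2alpha. The first and second arms raise chaperones and degradation genes. The PERK arm leads to the factor ATF4, and ATF4 is also reached from amino acid shortage through the kinase GCN2 (gene Eif2ak4), without the ER. The comparison below asks whether the ER genes moved together with the amino acid response genes in these cultures.

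Neurod2 itself measured 60.3 FPKM in the Neurod2 knockdown group and 105 FPKM in the non-silencing group, a log2 ratio of -0.80. The cultures carried neuronal transcripts at high levels, with Tubb3 at 879 FPKM in knockdown and 839 FPKM in non-silencing cultures. The 9 neuronal marker loci at a mean of at least 1 FPKM had a median log2 ratio of 0.09, and 7 of them were above 0. Among 5 such astrocyte loci the median was -0.03, with 3 below 0 and 2 above. Gfap measured 35.1 FPKM in knockdown against 57.4 FPKM in non-silencing cultures (-0.71). The 2 above 0 were Aldoc (0.13) and Slc1a3 (0.05), and Slc1a2 (-0.08) and Aqp4 (-0.03) lay near the median. The 4 microglial genes with a locus summed to 0.519 FPKM in knockdown and 0.197 FPKM in non-silencing cultures, and the 5 endothelial genes to 0.2996 FPKM in knockdown and 0.160 FPKM in non-silencing cultures, with 1 locus each of Csf1r and Cdh5 listed at 0 in both. The 7 fibroblast and mural genes summed to 6.26 FPKM in knockdown and 4.14 FPKM in non-silencing cultures. This sum includes loci under the filter, among them Acta2, Col1a1 and Col3a1, which were higher in knockdown. The 2 loci past the filter, Dcn and Pdgfrb, had a median log2 ratio of -0.08. Median log2 ratios were -0.04 over 4 progenitor loci, -0.07 over 6 loci of the oligodendrocyte lineage and -0.20 at the 1 interneuron locus past the filter, that of Gad2. Past 1.2-fold lower were 1 of the 4 progenitor loci (Eomes, -0.39) and 2 of the 6 oligodendrocyte loci (Sox10, -0.49, and Pdgfra, -0.33). In both lists 0 were past 1.2-fold higher, and of all loci 8.03% were past it lower and 5.82% higher. In bulk RNA, fewer cells of a type and less RNA per cell cannot be told apart. The part of cell composition in the values below was not tested.

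The binding sites known for these pathways are short, and the promoters show which members carry them. The ER stress response element, bound by ATF6 with its partner NF-Y, is CCAAT, then 9 bases of any kind, then CCACG. In RefSeq promoters (build GRCm38.p6, 250 bases before to 50 bases after each start, both strands searched) it was found in 39 of 32851 promoters, or 0.119%, and in 9 of the 34 members with a promoter. The members were Hspa5, Hsp90b1 (with 2 matches), Calr, Canx, Pdia6, Dnajc3, Creld2, Derl3 and Syvn1. The list was drawn up as targets of these factors, so this count is a description of the list. The core of the C/EBP-ATF composite element, TTGCATCA, which ATF4 binds in amino acid response genes, was in 294 promoters, or 0.895%. Of the 34 members, Herpud1 alone had it. The core of the unfolded protein response element, TGACGTGG, was in 222 promoters, or 0.676%, and in no member's window. A second ER stress response element (ATTGG, 1 base of any kind, CCACG), searched after the others had been seen, was in 12 promoters, or 0.0365%, among them Herpud1 and Dnajb11. A match of letters is not a shown site of binding. Atf6, Hyou1, Ppp1r15b, Derl1, Hsp90ab1 and Manf had no promoter to search, so no match could be found in them.

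The stretches of 6 members with a locus of their own are shown as examples, with the matches in capitals. Their ratios lay between -0.57 and 0.14. Dnajc3 (0.07) also has a match and a locus of its own and is not shown. On the reverse strand the ER stress response element begins with CGTGG and ends with ATTGG, as in Calr, Creld2 and Derl3. The stretches lie at chr2:34772020-34772048 (Hspa5, plus strand), chr8:84847065-84847103 (Calr, minus strand), chr11:50325790-50325828 (Canx, minus strand), chr15:88819510-88819548 (Creld2, plus strand), chr10:75893232-75893270 (Derl3, plus strand) and chr8:94386307-94386397 (Herpud1, plus strand).
Hspa5: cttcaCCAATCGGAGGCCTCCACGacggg
Calr: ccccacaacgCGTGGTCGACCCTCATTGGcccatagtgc
Canx: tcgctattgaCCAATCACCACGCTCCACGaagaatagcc
Creld2: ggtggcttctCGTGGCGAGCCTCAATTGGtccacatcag
Derl3: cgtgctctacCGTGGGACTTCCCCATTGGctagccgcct
Herpud1: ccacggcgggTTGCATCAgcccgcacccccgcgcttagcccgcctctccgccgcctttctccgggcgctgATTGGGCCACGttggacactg

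The Herpud1 stretch held both kinds of match, the composite core beginning 112 bases before the RefSeq start and the second ER stress response element beginning 52 bases before it. In the other members the ER stress response element began between 212 bases (Hsp90b1) and 44 bases (Syvn1) before the start.

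**Figure D1:**
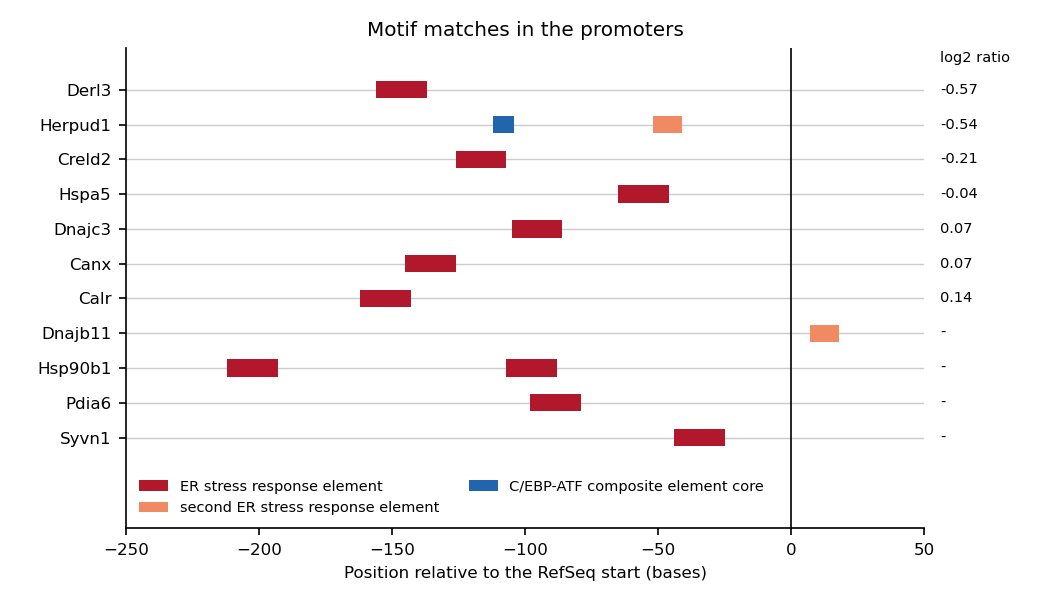
Positions of the motif matches in the promoters of the 11 members that had one, in bases relative to the RefSeq start (vertical line at 0), with the log2 ratio of knockdown over non-silencing FPKM at the right for members with a locus of their own and a dash for the others. The 6 members with the ER stress response element and a locus of their own ranged from -0.57 (Derl3) to 0.14 (Calr), and Herpud1 (-0.54) had the composite core and the second element.

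The median ratio of the ER chaperone and unfolded protein response loci lay near that of all loci. At a mean of at least 1 FPKM over both groups 42 member loci, of 36 genes, could be compared, and their median log2 ratio was -0.03, the same as the -0.03 over all 12618 such loci. The 30 member loci alone at their position had a median of -0.06, and 21 of the 30 were below 0, against 58.4% of all loci. The 12 at shared positions, which cannot be assigned to their genes, had a median of 0.01. Ratios past 1.2-fold lower were seen at 5 of the 42 loci, or 11.9%, against 8.03% of all loci, and past 1.2-fold higher at 0 of the 42, against 5.82% of all loci. Past 1.5-fold, 1 locus was lower and 0 were higher, where 2.09% of all loci were lower and 1.36% higher. The remaining 37 loci lay within 1.2-fold. The 5 lower loci were those of Herpud1, Eif2ak3 and Derl3, and 1 locus each at the shared positions of Derl1 and Syvn1.

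Of the 45 loci, 31 stood alone at their position, 1 for each of 31 genes. The other 14 lay at positions with 2 or 3 loci, and for these 6 genes (Hsp90b1, Dnajb11, Syvn1, Derl1, Derl2 and Mbtps2) the table does not say which locus is which transcript. Another 3 members had no locus by the rule. The position over Pdia6 shared 0.312 of its union with the gene and runs into Atp6v1c2, the position over Eif2ak1 shared 0.352, and the one over Ppp1r15a, which encodes the stress-induced subunit of the eIF2alpha phosphatase, shared 0.0636. At this last position, which fits Tulp2 better, 4 loci were listed, and the 2 higher measured 11.7 and 5.21 FPKM in knockdown against 12.8 and 7.11 FPKM in non-silencing cultures (-0.13 and -0.45). The member just inside the limit was Dnajb11, at 0.524. At the position over Pdia6 the higher locus measured 107 FPKM in knockdown and 112 FPKM in non-silencing cultures, and at the one over Eif2ak1 the 2 higher loci measured 32.2 and 19.6 FPKM in knockdown against 34.1 and 19.4 FPKM in non-silencing cultures. The locus that met the rule for Manf by its GENCODE span shared 0.998 of its union with another gene, Dcaf1. It was therefore left out, and Manf was read at the locus that matched its RefSeq span, a choice made after the mismatch had been seen.

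**Figure D2:**
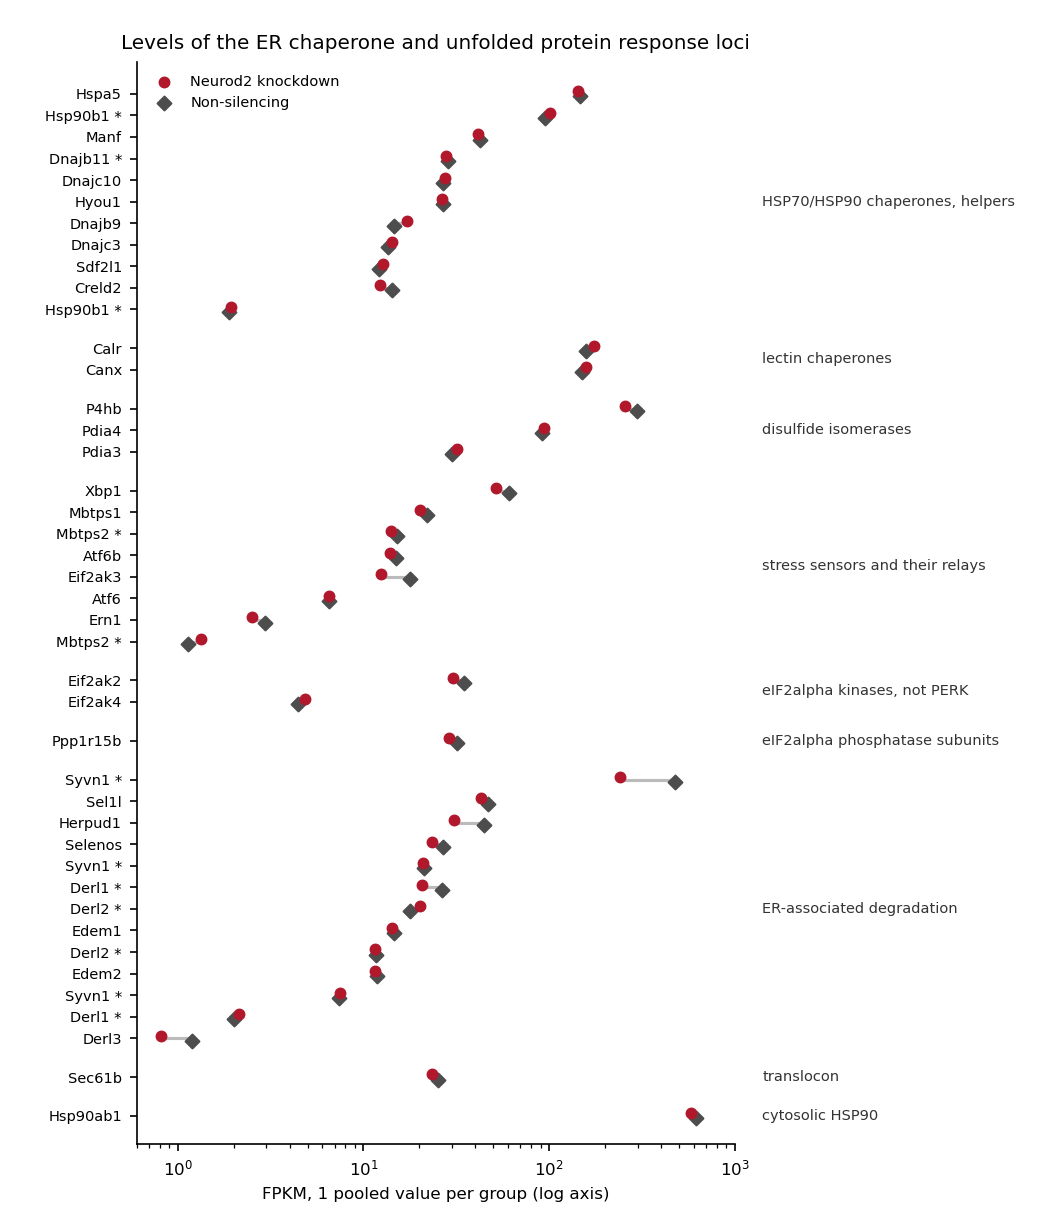
FPKM (log axis, 1 pooled value per group) of the 42 member loci in Neurod2 knockdown (red circles) and non-silencing cultures (grey diamonds), by role and in order of level, with an asterisk where several loci share a position. Most pairs nearly coincide, and the wide gaps are at the shared position of Syvn1 (241 FPKM in knockdown, 478 FPKM in non-silencing), Herpud1 (30.8 in knockdown, 44.6 in non-silencing), Eif2ak3 (12.5 in knockdown, 17.7 in non-silencing) and Derl3 (0.809 in knockdown, 1.198 in non-silencing).

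The chaperones and disulfide isomerases, the classical read-out of ATF6 and XBP1 activity, had 18 loci, of which 16 passed the filter. All 16 lay within 1.2-fold, where 8.03% of all loci were past 1.2-fold lower and 5.82% higher. Of the 16, 6 were below 0 and 10 above 0, with a median log2 ratio of 0.04. Their summed level was 1138 FPKM in Neurod2 knockdown and 1147 FPKM in non-silencing cultures, a ratio of 0.992. The 16 include both loci at the position of Hsp90b1 (0.09 and 0.04) and the highest at that of Dnajb11 (-0.03). Loci at these shared positions cannot be assigned to their genes. Hspa5, which encodes BiP, the HSP70 of the ER lumen that holds the sensors inactive, measured 142 FPKM in knockdown and 146 FPKM in non-silencing cultures (log2 ratio -0.04). Its locus at chr2:34772090-34776529 stood alone at its position. Of all loci, 48.1% had a lower ratio than Hspa5, which placed BiP in the middle of the distribution.

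Hsp90b1, which encodes the ER paralog of HSP90 (GRP94), had 2 loci at its position. The higher measured 101 FPKM in knockdown and 94.8 FPKM in non-silencing cultures (0.09). The lower measured 1.94 FPKM in knockdown and 1.89 FPKM in non-silencing cultures (0.04). Neither locus had a lower level in the knockdown group.

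Manf, a secreted stress-induced neurotrophic factor that binds BiP, measured 41.3 FPKM in knockdown and 42.3 FPKM in non-silencing cultures (-0.04). Hyou1, a nucleotide exchange factor for BiP, measured 26.5 FPKM in knockdown and 26.8 FPKM in non-silencing cultures (-0.02). These genes are induced with BiP under ER stress, and like BiP both lay close to the median of all loci.

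The J-domain proteins, which feed clients to BiP, covered a slightly wider range. Dnajb9 (ERdj4), an XBP1 target, measured 17.1 FPKM in knockdown and 14.7 FPKM in non-silencing cultures (0.22), the highest ratio among members with a locus of their own. Dnajc3 (p58IPK), which also restrains PERK, measured 14.2 FPKM in knockdown and 13.5 FPKM in non-silencing cultures (0.07). Dnajc10 (ERdj5), a reductase that prepares clients for degradation, measured 27.3 FPKM in knockdown and 26.9 FPKM in non-silencing cultures (0.02). No J-domain locus past the filter was past 1.2-fold in either direction. Dnajb11 (ERdj3) had 3 loci at its position, of which the highest measured 27.9 FPKM in knockdown and 28.5 FPKM in non-silencing cultures (-0.03), another, under the filter, 0.150 FPKM in knockdown and 0.281 FPKM in non-silencing cultures (-0.91), and the third was listed at 0 in both.

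Sdf2l1, a partner of ERdj3, measured 12.7 FPKM in knockdown and 12.1 FPKM in non-silencing cultures (0.07). Creld2, an ER-stress-induced protein with disulfide isomerase activity, measured 12.3 FPKM in knockdown and 14.2 FPKM in non-silencing cultures (-0.21). Among the 16 chaperone and isomerase loci past the filter, Creld2 had the lowest ratio and Dnajb9 the highest.

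The lectin chaperones hold glycoproteins while they fold. Calr (calreticulin) measured 174 FPKM in knockdown and 158 FPKM in non-silencing cultures (0.14). Canx (calnexin), its membrane-bound relative, measured 158 FPKM in knockdown and 150.4 FPKM in non-silencing cultures (0.07). Both were somewhat higher in the knockdown group, within 1.2-fold. Of the disulfide isomerases, P4hb (PDI) was the most abundant, with 256 FPKM in knockdown and 295 FPKM in non-silencing cultures (-0.20). Pdia4 measured 93.7 FPKM in knockdown and 91.6 FPKM in non-silencing cultures (0.03), and Pdia3, the isomerase that works with the lectins, 31.8 FPKM in knockdown and 29.9 FPKM in non-silencing cultures (0.09). P4hb was thus lower, and Pdia4 and Pdia3 were slightly higher. Pdia6 had no locus by the rule, and the higher locus at the position over it was at -0.07.

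Among the sensors, Eif2ak3 was the one past 1.2-fold. It measured 12.5 FPKM in Neurod2 knockdown and 17.7 FPKM in non-silencing cultures, which was 1.42-fold lower in the knockdown group (log2 ratio -0.51), and 2.55% of all loci had a lower ratio. Its locus at chr6:70844527-70905240 matched the gene, of 17 exons, almost base for base (0.9997 of the union). The cells of this locus had been altered in the deposited table and were restored, as were those of 18 of the 45 member loci. Ern1, the sensor of the splicing arm, measured 2.50 FPKM in knockdown and 2.94 FPKM in non-silencing cultures (-0.23). Atf6 measured 6.50 FPKM in knockdown and 6.53 FPKM in non-silencing cultures (-0.01), and its relative Atf6b 13.8 FPKM in knockdown and 14.9 FPKM in non-silencing cultures (-0.10).

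Xbp1, the factor whose mRNA IRE1 splices, measured 52.0 FPKM in knockdown and 60.8 FPKM in non-silencing cultures (-0.23). These are gene levels, and spliced Xbp1 cannot be read from them. The proteases that cut ATF6 are encoded by Mbtps1 and Mbtps2. Mbtps1 measured 20.2 FPKM in knockdown and 21.9 FPKM in non-silencing cultures (-0.12). The 2 loci at the position of Mbtps2 measured 14.1 and 1.34 FPKM in knockdown against 15.1 and 1.13 FPKM in non-silencing cultures (-0.10 and 0.24). Creb3l2, a membrane-bound factor cut in the same way, stayed under the filter, at 0.916 FPKM in knockdown and 0.918 FPKM in non-silencing cultures. Of the 8 loci of sensors and relays past the filter, 7 were below 0 and the median was -0.11, where 58.4% of all loci were below 0 and their median was -0.03.

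Other kinases phosphorylate eIF2alpha as PERK does. Eif2ak4 (GCN2), the sensor of uncharged tRNA, measured 4.86 FPKM in knockdown and 4.43 FPKM in non-silencing cultures (0.14). Eif2ak2 (PKR), which senses double-stranded RNA, measured 30.2 FPKM in knockdown and 34.9 FPKM in non-silencing cultures (-0.21). Ppp1r15b, the constitutive partner of the phosphatase that reverses the mark, measured 28.9 FPKM in knockdown and 31.7 FPKM in non-silencing cultures (-0.13). None was past 1.2-fold. RNA levels do not show the activity of these kinases or the phosphorylation of eIF2alpha.

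Genes of ER-associated degradation, which moves misfolded protein out of the ER to the proteasome, had 13 loci past the filter, with a median log2 ratio of -0.04, and 4 of them were past 1.2-fold lower, where 8.03% of all loci were. Of those 4, 1 lay at the position of Syvn1 and 1 at that of Derl1, which hold several loci, and among the 6 degradation genes that stood alone at their position 2 were past 1.2-fold lower, Herpud1 and Derl3. Herpud1, a membrane adaptor of the degradation complex induced by ER stress and also through PERK and ATF4, measured 30.8 FPKM in Neurod2 knockdown and 44.6 FPKM in non-silencing cultures. This was 1.45-fold lower in the knockdown group (log2 ratio -0.54), and 2.36% of all loci had a lower ratio. Among the 7190 loci with a mean of at least 10 FPKM the share was 2.35%, so its place was nearly the same among well expressed loci. Its locus at chr8:94386500-94395358 stood alone and its cells were unaltered.

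Derl3, a derlin of the retrotranslocation channel, measured 0.809 FPKM in knockdown and 1.198 FPKM in non-silencing cultures (-0.57). It passed the filter on its mean, which its higher level in the non-silencing group carried, and with a pseudocount of 1 FPKM its log2 ratio was -0.28. Derl1 had 2 loci at chr15:57869502-57892418. The higher measured 20.5 FPKM in knockdown and 26.3 FPKM in non-silencing cultures (-0.36), and the lower 2.15 FPKM in knockdown and 2.01 FPKM in non-silencing cultures (0.09). The 2 loci of Derl2, whose position also covers Mis12, measured 20.1 and 11.6 FPKM in knockdown against 17.7 and 11.7 FPKM in non-silencing cultures (0.18 and -0.01). The 5 loci at derlin positions thus had ratios on both sides of 0.

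Sel1l, the scaffold of the membrane ubiquitin ligase complex, measured 42.9 FPKM in knockdown and 46.8 FPKM in non-silencing cultures (-0.12). Syvn1 encodes HRD1, the ligase itself. At its position, chr19:6046576-6057751, lay 3 loci, and Mrpl49 and the microRNA gene Mir6988 are annotated inside. They measured 241, 20.8 and 7.51 FPKM in knockdown against 478, 21.2 and 7.39 FPKM in non-silencing cultures (-0.99, -0.03 and 0.02). Which of these is Syvn1 cannot be told from the position. The first was the one member locus past 1.5-fold, and no count that includes it can be credited to HRD1.

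Edem1 and Edem2, mannosidase-like proteins that mark glycoproteins for degradation, measured 14.2 and 11.5 FPKM in knockdown against 14.55 and 11.8 FPKM in non-silencing cultures (-0.03 and -0.04). Selenos, a selenoprotein that links the channel to the ATPase p97, measured 23.3 FPKM in knockdown and 26.9 FPKM in non-silencing cultures (-0.21). Edem1, an XBP1 target, lay at the median of all loci.

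Outside these groups, Sec61b, a subunit of the channel through which new protein enters the ER, measured 23.2 FPKM in knockdown and 25.1 FPKM in non-silencing cultures (-0.11). Hsp90ab1, a cytosolic HSP90 that lies outside the ER response, was the most abundant member, with 579.9 FPKM in knockdown and 615 FPKM in non-silencing cultures (-0.08). In knockdown cultures the order of levels continued with P4hb, Calr, Canx and Hspa5, leaving the shared position of Syvn1 aside.

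Amino acid response genes had lower ratios. That list was chosen with earlier results of these data known. The paper names Chac1, Sesn2, Ddit4 and Pck2 among the genes perturbed by Neurod2 depletion. The low ratios are therefore a description of the list. Of the 36 genes on it, which are targets or partners of ATF4, 30 loci passed the same filter. Of these, 28 were below 0 (58.4% of all loci were), with a median log2 ratio of -0.48. Past 1.2-fold lower were 27 of the 30 and past 1.5-fold lower 12, with 0 past either fold in the other direction, beside the shares of all loci given above. Among the 12 were loci at shared positions, which position does not assign to a gene. These were 1 of 2 loci at Mars1 (-0.94, the other at -0.36) and 1 of 2 at Shmt2 (-0.62, the other under the filter). The 12 included Pck2, the mitochondrial enzyme of phosphoenolpyruvate synthesis (4.32 FPKM in knockdown, 9.23 FPKM in non-silencing cultures, -1.09), and Slc7a3, a transporter of basic amino acids (15.1 FPKM in knockdown, 31.8 FPKM in non-silencing cultures, -1.07). Eif4ebp1, a translation repressor, measured 11.2 FPKM in knockdown and 23.1 FPKM in non-silencing cultures (-1.04). Trib3, a pseudokinase that ATF4 and CHOP induce under stress, measured 0.971 FPKM in knockdown and 1.97 FPKM in non-silencing cultures (-1.02), so that its level in the non-silencing group carried it past the filter, and with a pseudocount of 1 FPKM its ratio was -0.59. Chac1, which degrades glutathione and is induced by the same factors, measured 15.8 FPKM in knockdown and 30.8 FPKM in non-silencing cultures (-0.96). Atf4 itself measured 150.3 FPKM in knockdown and 193 FPKM in non-silencing cultures (-0.36), and Gars, the glycyl-tRNA synthetase, 107 FPKM in knockdown and 139 FPKM in non-silencing cultures (-0.37).

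Set beside these values, 4 of the 42 ER loci had a lower ratio than Atf4, those of Herpud1, Eif2ak3 and Derl3 and the shared one at Syvn1. With a pseudocount of 1 FPKM, tried after seeing the data, Derl3 was no longer among them and 3 remained, of which the one at Syvn1 cannot be assigned to that gene. Herpud1 would stand within that list, where 12 of 30 loci had a lower ratio, and so would Eif2ak3, where 14 of 30 had. Of all loci, 8.03% were past 1.2-fold lower and 5.82% higher. Within 1.2-fold were 37 of 42 ER loci and 3 of 30 amino acid response loci. The composite core was in 6 of the 30 promoters of that list that could be read, where 0.895% of all promoters held it. Among the ER genes with a promoter Herpud1 alone had it, and Eif2ak3 did not. Whether the core bears on any of these ratios was not tested. No gene was on both lists. Both lists were chosen with earlier results of these data known, so the contrast between them is a description. With 1 pooled value per group, whether the lists differ beyond the spread between libraries was not tested.

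**Figure D3:**
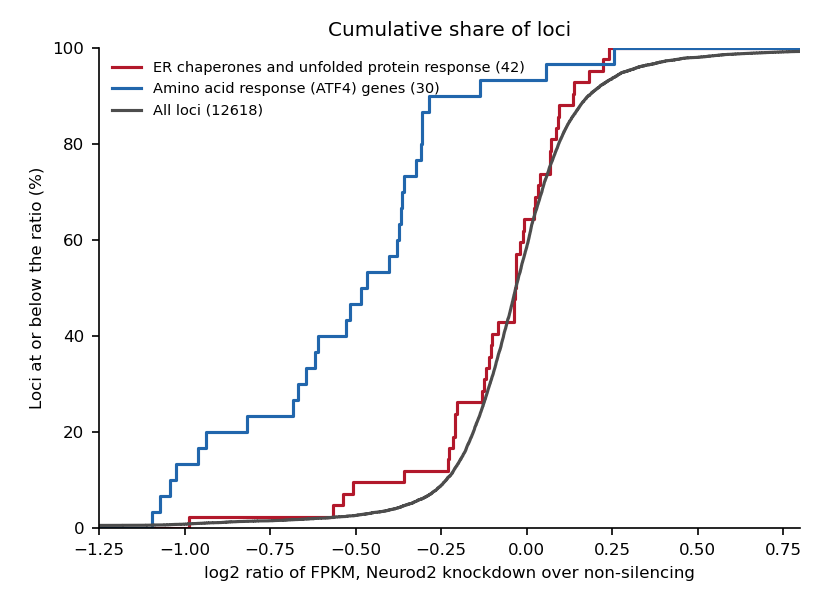
Cumulative percentage of loci at or below each log2 ratio of FPKM (knockdown over non-silencing) for the 42 ER chaperone and unfolded protein response loci (red), the 30 amino acid response loci (blue) and all 12618 loci (grey). The red and grey curves run together through their common median of -0.03, and the blue curve lies to the left, with its median at -0.48.

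Genes of the same compartment that are not members lay near the ER genes. Of all loci, 8.03% were past 1.2-fold lower and 5.82% higher. The 32 loci of other ER folding genes had a median log2 ratio of -0.08, with 3 past 1.2-fold lower, or 9.4%, and 0 higher. The 3, named after their values were seen, were Fkbp7 (1.77 FPKM in knockdown, 2.55 FPKM in non-silencing cultures, -0.52), Cnpy2 (-0.27) and 1 of 4 loci at the position of Dnajc1 (-0.28). The highest of 4 loci at the position of Txndc11, which cannot be told apart by position, measured 672 FPKM in knockdown and 796 FPKM in non-silencing cultures (-0.24). Ppib, a prolyl isomerase of the ER lumen, had 2 loci, the higher at 143 FPKM in knockdown and 156 FPKM in non-silencing cultures (-0.13). The 19 loci of other ER-associated degradation genes had a median of -0.02 and 0 past 1.2-fold in either direction, with Marchf6, a membrane ubiquitin ligase, at 105 FPKM in knockdown and 111 FPKM in non-silencing cultures (-0.07). The 15 translocon and signal peptidase loci had a median of -0.08, with 1 past 1.2-fold lower, Sec61g (2.45 FPKM in knockdown, 3.24 FPKM in non-silencing cultures, -0.40), and 0 higher. Ssr3, a subunit of the translocon-associated complex, was the most abundant of them, with 114 FPKM in knockdown and 109.8 FPKM in non-silencing cultures (0.05).

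**Figure D4:**
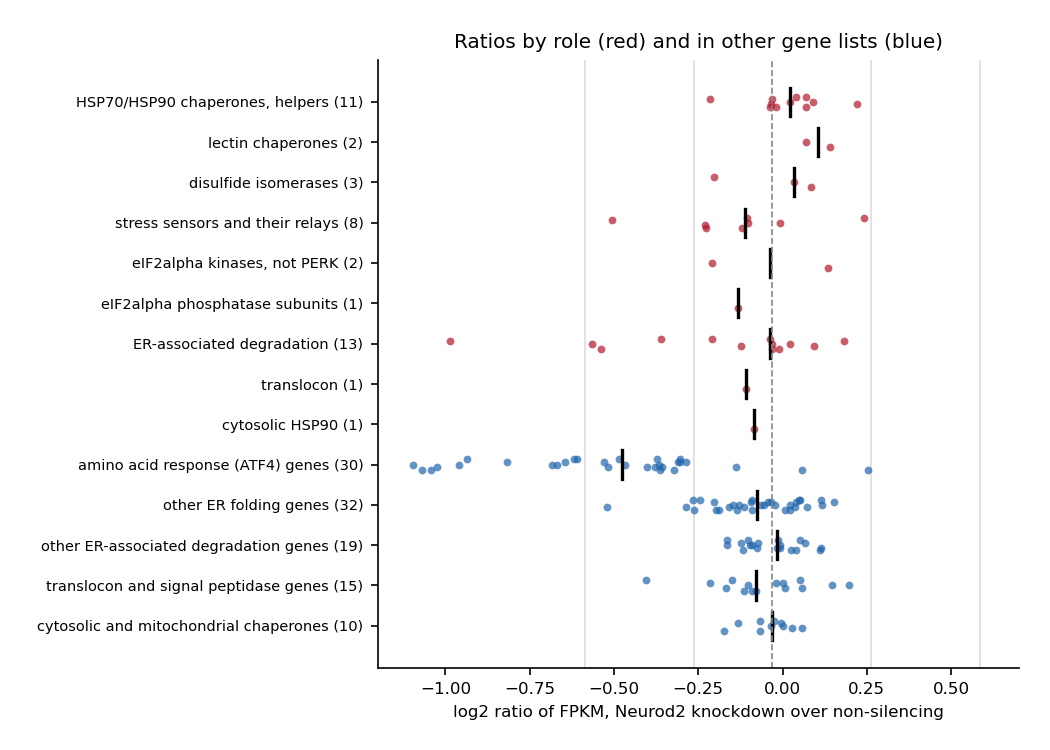
Log2 ratio of FPKM (knockdown over non-silencing) of each locus by role of the ER genes (red) and in other gene lists (blue), with the median of each row as a black bar, the median of all loci as a dashed line, and pale lines at 1.2-fold and 1.5-fold in each direction. The number of loci is in parentheses, and the amino acid response row has its median at -0.48. The red rows of HSP70/HSP90 chaperones, lectin chaperones and disulfide isomerases have theirs between 0.02 and 0.10. Cytosolic HSP90 (red) is at -0.08, other ER folding genes (blue) at -0.08, and cytosolic and mitochondrial chaperones (blue) at -0.03.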

How the data were processed

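Per the labels, the authors used TopHat, Cufflinks and Cuffdiff on 50 bp single-end reads with build mm10, with no version given in the sources used here. The deposited table holds FPKM values, 1 per locus and group, normalized by the authors for length and library size, and the authors' own log2 fold change, p-value and q-value, of which the last 2 were not used. A spreadsheet had turned many values into times. The possible readings were listed and the pair was kept whose log2 ratio matched the deposited log2 fold change within 2e-05, the only use of that column. This restored 4937 of 32357 loci and left 91 open, none of them a member. The procedure was tested on simulated data. Loci were named by GENCODE M21 spans, and Manf by its RefSeq span. Ratios were computed without a pseudocount, in loci with a mean of at least 1 FPKM and both values above 0, with Python. Of the members all are named, and of other lists those past 1.5-fold (up to 6) and the most abundant. Members and lists were chosen with earlier results of these data known. Alternatives changed pseudocount, centring, filter, overlap, status and loci kept.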

Additional observations from a re-analysis of the deposited data

How the results depend on the processing

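The median log2 ratio of the ER loci stayed between -0.09 (overlap of at least 0.8) and -0.00207 (centring on the median of all loci) under each of 12 alternatives. The count of loci past 1.5-fold lower, 1 as reported, was 2 with no filter on low values, and 0 with an overlap of at least 0.8, with unaltered cells alone and with members that stood alone at their position. Those last 2 settings gave 2 and 3 loci past 1.2-fold lower, against 5. They hold fewer loci, 24 and 30. The count past 1.2-fold higher, 0 as reported, was 1 after centring, the lower locus of Mbtps2. Of 44 single ratios, 5 changed sign under centring (Hyou1, Atf6, Creb3l2, 1 locus each of Derl2 and Syvn1). A pseudocount of 1 FPKM moved Derl3, the lower loci of Mbtps2 and of Dnajb11 by at least 0.1. GENCODE spans for every member and RefSeq spans for every member, added after seeing the data, changed no count. No paired analysis was possible because the table holds 1 pooled value per group.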

Other observations

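Chaperones outside the ER are raised by heat shock factor or by the mitochondrial stress response rather than by the ER sensors. Of 16 such genes, 10 loci passed the filter, with a median log2 ratio of -0.03 and 0 past 1.2-fold in either direction. Of all loci, 8.03% were past 1.2-fold lower and 5.82% higher. Hspa9, the HSP70 of the mitochondrial matrix, measured 90.6 FPKM in Neurod2 knockdown and 102 FPKM in non-silencing cultures (-0.17). Hspa4, a cytosolic exchange factor for HSP70, measured 80.9 FPKM in knockdown and 84.8 FPKM in non-silencing cultures (-0.07).

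The 6 members with the ER stress response element and a locus of their own past the filter had a median log2 ratio of 0.02 (-0.57 to 0.14). The 18 such members with neither ER stress response element had a median of -0.11 (-0.51 to 0.22). The difference was not tested.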
